A study of Mus musculus with 2 samples.

Results

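Heme synthesis was examined in red pulp macrophages of the mouse spleen through 8 genes of its enzymes, Alas1, Alas2, Alad, Uros, Urod, Cpox, Ppox and Fech. The genes were taken as a fixed list and found by matching the accession of each array probe to RefSeq transcripts, which gave 9 probes among 39386 probes on the array, of which 27206 had a gene symbol (20642 genes). Alas1 had 2 probes and each other gene had 1 probe, and every probe was printed once per array. All 9 spots were free of outlier flags on both arrays. Cells of SIRPα-KO mice, which lack a myeloid receptor that recognises CD47 and restrains phagocytosis, were set against cells of WT mice. In each genotype, splenic F4/80+CD11blow cells of 5 mice were isolated by cell sorting and mixed before RNA extraction, red blood cells were lysed beforehand, globin messages were depleted from the RNA, and 1 array was hybridised. The sources used here do not give age, sex, strain background or the deleted part of the gene.

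With 1 array per genotype no difference has a replicate check and no test was possible, so no p-value is given. Genes are called higher or lower where the arrays differed 2-fold or more, that is by 1 on the log2 scale, after each array was scaled to its 75th percentile. The ± value after a signal or a difference is the scanner software's own error of the spot, carried to the log2 difference where needed, and it covers neither mice nor pools. In these pooled sorted cells, fewer cells of a type and less RNA per cell cannot be told apart. Sirpa itself had a signal of 1006 on the SIRPα-KO-labelled array and 795 on the WT array, a log2 difference of 0.51 ± 0.20. That signal goes against the label, although a probe that lies outside the deletion checks nothing. All directions below follow the labels. As for the cell type, the macrophage genes Adgre1, which encodes F4/80, and Csf1r, the receptor of macrophage colony-stimulating factor, were well above background on both arrays, with Adgre1 at 10406 on the SIRPα-KO-labelled array and 6830 on the WT array and Csf1r at 6697 on the SIRPα-KO-labelled array and 6601 on the WT array. That Adgre1 probe, the brighter of 2, differed by 0.78 ± 0.20 after scaling. The other Adgre1 probe went the opposite way (-0.47 ± 0.20), with 474 on the SIRPα-KO-labelled array and 737 on the WT array. Spic, the transcription factor these macrophages depend on, had a signal of 53.6 on each array. Of 20 listed red pulp macrophage genes, 15 were well above background on the SIRPα-KO-labelled array and 17 on the WT array. Mertk and Itgad, named after their values were seen, were well above background on neither.

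Heme is built from glycine and succinyl-CoA in a chain of enzymes that starts and ends in the mitochondrion and passes through the cytosol in between. The opening step is made by 5-aminolevulinate synthase, which exists as a ubiquitous form, encoded by Alas1 and held in check by heme, and an erythroid form, encoded by the X-linked Alas2. Red pulp macrophages are best known for the opposite task, the breakdown of heme from engulfed red cells. Like other nucleated cells they also need heme of their own for respiratory chain cytochromes, catalase and the phagocyte oxidase.

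On the SIRPα-KO-labelled array, 0 of the 8 genes were higher by 2-fold or more and 0 were lower by as much. Over all 15828 measured genes, 3.11% passed that size upward and 5.48% downward, together 8.59%. A count of 0 in 8 genes is near that background. Alas2 could not be called lower. Its scaled WT value lay below the lowest scaled value called well above background on the SIRPα-KO-labelled array. The count thus rests on the other 7 genes. Alas1 was bright on both arrays, Alas2 was well above background on the WT array only and near its limit there, and the 6 later enzymes were dim but well above background. A gene was called measured where 1 or both arrays read its brightest probe well above background, and all 8 were. For 7 of them, all but Alas2, both arrays were well above background. Their differences ran between -0.33 for Alas1 and 0.68 for Uros on the log2 scale, with 5 above 0 and 2 below 0. Their median was 0.15, and 0.11 over all 8 with Alas2 set to 0, against -0.09 over all measured genes, of which 40.5% lay above 0.

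**Figure D1:**
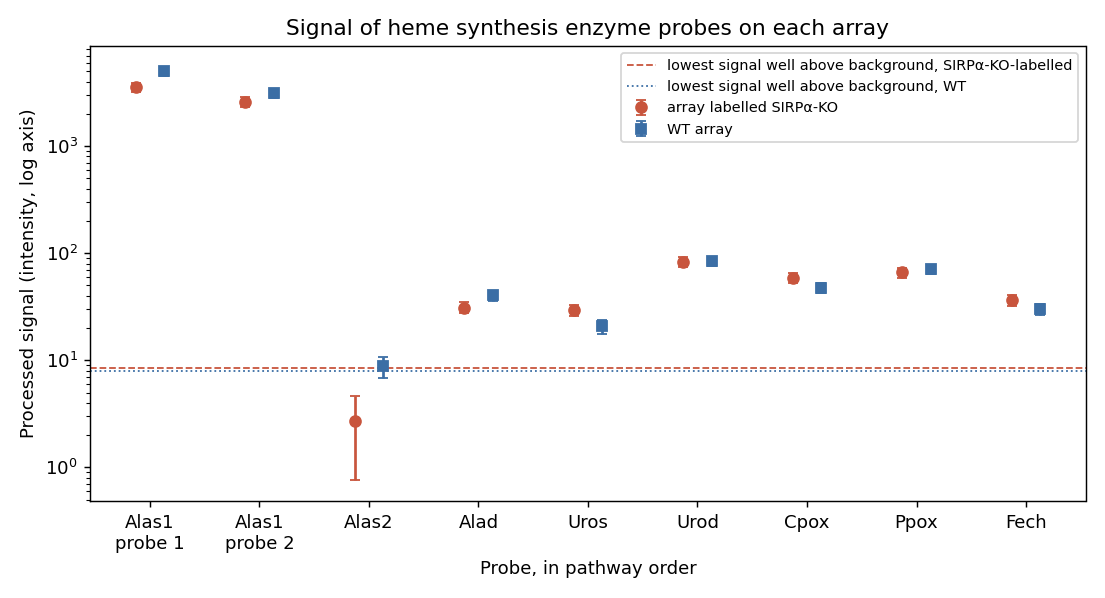
Processed signal of each probe (log axis) with the scanner software's signal error, on the SIRPα-KO-labelled array (circles) and the WT array (squares), in pathway order; the lines mark the lowest signal called well above background on each array. Both Alas1 probes lie between 2582 and 5014, Alas2 lies below the lines on the SIRPα-KO-labelled array (2.71) and just above them on the WT array (8.79), and the 6 later enzymes lie between 20.7 and 83.9.

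Alas1 encodes the rate-limiting synthase of non-erythroid cells. Its brighter probe had a signal of 3558 ± 356 on the SIRPα-KO-labelled array and 5014 ± 501 on the WT array. Its other probe read 2582 ± 258 on the SIRPα-KO-labelled array and 3111 ± 311 on the WT array. Each probe was lower on the SIRPα-KO-labelled array as measured and after scaling to the 75th percentile. After that scaling the log2 differences were -0.33 ± 0.20, or 1.25-fold lower, and -0.10 ± 0.20, or 1.07-fold lower. The brighter probe exceeded its error and the other did not, and the probes lay 0.23 apart. The difference of the brighter probe was close to that of other genes of like brightness: among 489 genes with a mean signal of 2000 to 6000 the median difference was -0.38 with an SD of 0.78. With scalings that follow brightness, the Alas1 difference shrank to -0.054 after quantile normalization, to -0.12 after cyclic loess and to -0.045 in the table deposited by the authors, against a value of -0.49 without scaling. The other probe turned above 0 under these, at 0.19 after quantile normalization, 0.10 after cyclic loess and 0.19 in the table deposited by the authors. The direction of Alas1 therefore depended on the probe and the scaling.

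Alas2 encodes the synthase that supplies hemoglobin in red cell precursors, and its messenger RNA carries an iron-responsive element. Its single probe had a signal of 2.71 ± 1.95 on the SIRPα-KO-labelled array, which was not well above background, and of 8.79 ± 1.95 on the WT array, which was. The lowest signal called well above background was 8.53 on the SIRPα-KO-labelled array and 7.92 on the WT array, so the WT value lay within its own error of that limit. After scaling, the limit of the SIRPα-KO-labelled array (-3.39 on the log2 scale) was above the WT value of Alas2 (-3.51), and no fold can be given. The processed signals without that limit would give a scaled difference of -1.53 with an error of 1.09. Before background subtraction the spot medians were closer, at 39 on the SIRPα-KO-labelled array and 45 on the WT array.

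The ubiquitous and the erythroid synthase can therefore be compared only loosely. Processed signals, which are background-subtracted and spatially detrended, were divided by the local background of the spot. The brighter Alas1 probe gave 178 times its local background on the SIRPα-KO-labelled array and 251 times on the WT array. The Alas2 probe gave 0.15 times on the SIRPα-KO-labelled array and 0.53 times on the WT array. Before subtraction, the Alas2 spot median on the SIRPα-KO-labelled array was 39 over a local background of 18. On the WT array it was 45 over 16.5. Brightness is a property of each probe as well as of its transcript, so these ratios are not a ratio of transcripts. The Alas1 difference minus that of Alas2 was -0.33 with Alas2 set to 0, and 1.20 ± 1.11 with its processed signals used without the limit. The sign of this contrast depends on how the Alas2 signal is treated.

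The promoters of these genes are shown because the pair of synthases is separated by where they are transcribed. Cpox is added as a later enzyme because its window, like that of Alas2, held the core GATAA that GATA factors bind. Sequences are from RefSeq (GRCm38.p6), 250 bases before the annotated start, 5′ to 3′. Promoters of 7 genes were examined. Fech was left out of this step, so nothing is said here of its promoter. Capitals mark the core GATAA of the motif that GATA factors bind, searched on both strands (TTATC on the strand shown where it lies on the other). The windows are chr9:106247955-106248204 (minus strand) for the upstream start of Alas1, chrX:150547167-150547416 (plus strand) for Alas2 and chr16:58669958-58670207 (plus strand) for Cpox.
Alas1: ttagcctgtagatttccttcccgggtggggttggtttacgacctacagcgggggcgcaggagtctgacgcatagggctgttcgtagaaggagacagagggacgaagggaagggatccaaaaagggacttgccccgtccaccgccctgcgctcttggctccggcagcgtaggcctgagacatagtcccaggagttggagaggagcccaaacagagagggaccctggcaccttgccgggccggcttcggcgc
Alas2: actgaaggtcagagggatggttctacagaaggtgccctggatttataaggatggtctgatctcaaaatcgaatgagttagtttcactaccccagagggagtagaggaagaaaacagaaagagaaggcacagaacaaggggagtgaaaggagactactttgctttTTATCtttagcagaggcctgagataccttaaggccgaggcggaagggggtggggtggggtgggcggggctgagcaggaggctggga
Cpox: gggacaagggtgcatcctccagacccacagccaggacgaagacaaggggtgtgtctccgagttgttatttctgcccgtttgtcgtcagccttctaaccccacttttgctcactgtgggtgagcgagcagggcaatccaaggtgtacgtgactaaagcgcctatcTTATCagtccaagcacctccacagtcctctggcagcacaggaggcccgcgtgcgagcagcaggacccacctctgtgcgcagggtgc
Alas2 and Cpox each held 1 match, on the opposite strand and 86 bases before the start in both, and the Alas1 window held none. Of 32851 such windows of all genes, 22.6% held at least 1. The second annotated start of Uros also had a match, 68 bases before it. The E-box CACGTG, which reads the same on both strands, was found before both starts of Alad, the upstream start of Uros and the start of Urod, and in 6.02% of all windows. The shown Alas1 window held 16 CpG dinucleotides, that of its downstream start 42, that of Cpox 11 and that of Alas2 4, where the median of all windows was 6. A match is a description of letters and says nothing of binding here.

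The enzymes after the opening step were then taken in pathway order. Alad, which joins aminolevulinate into the pyrrole porphobilinogen, had a signal of 31.1 ± 3.7 on the SIRPα-KO-labelled array and 40.4 ± 4.4 on the WT array. Its scaled difference of -0.21 ± 0.23 stayed within the error. Uros, the synthase that closes the uroporphyrinogen III ring, had a signal of 29.6 ± 3.6 on the SIRPα-KO-labelled array and 20.7 ± 2.9 on the WT array. It was 1.61-fold higher, 0.68 ± 0.27 on the log2 scale, the largest difference among the 7 genes well above background on both arrays. Of the 14159 genes that both arrays measured well above background, 8.49% had a difference above that of Uros. Counting both directions, 18.3% had a difference as large or larger in size.

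Urod, the decarboxylase that makes coproporphyrinogen in the cytosol, was level, with a signal of 83.0 ± 8.6 on the SIRPα-KO-labelled array and 83.9 ± 8.6 on the WT array. Its scaled difference was 0.15 ± 0.21. Cpox, the oxidase that brings the pathway back to the mitochondrion, had a signal of 58.6 ± 6.2 on the SIRPα-KO-labelled array and 47.2 ± 5.0 on the WT array. It was 1.40-fold higher (0.48 ± 0.22), a difference that 15.1% of those 14159 genes exceeded and 32.9% matched or exceeded in size either way. Ppox, the oxidase that makes protoporphyrin, read 66.0 ± 6.8 on the SIRPα-KO-labelled array and 70.9 ± 7.3 on the WT array, 0.07 ± 0.21 after scaling. Fech, the ferrochelatase that inserts iron to complete heme, had a signal of 36.2 ± 4.2 on the SIRPα-KO-labelled array and 30.0 ± 3.6 on the WT array. It was 1.36-fold higher, 0.44 ± 0.24 on the log2 scale. Of those genes 16.6% exceeded it, and 36.7% differed by as much or more in size either way.

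Uros, Cpox and Fech were thus the members that lay higher on the SIRPα-KO-labelled array by more than their signal error, and Alas1 at its brighter probe the member that lay lower by more than that. Only Uros and Cpox exceeded 2 times the error. None reached 2-fold. At the brightness of the later enzymes the signal error is close to the repeatability of spots within an array: 110 probes with 8 to 10 spots and a mean signal of 20 to 100 had a median spot SD of 0.15 on the SIRPα-KO-labelled array and 0.14 on the WT array, on the log2 scale. At the brightness of Alas1 only 5 probes were repeated, with a median spot SD of 0.073 on the SIRPα-KO-labelled array and 0.084 on the WT array, below the signal error there. The spread between the arrays was wider than that. Across 6139 genes with a mean signal of 20 to 100, measured well above background on each array, the differences had an SD of 0.53 around a median of -0.03, and 6.16% were 2-fold or more apart. The differences of Cpox and Fech lay within that SD and that of Uros above it.

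**Figure D2:**
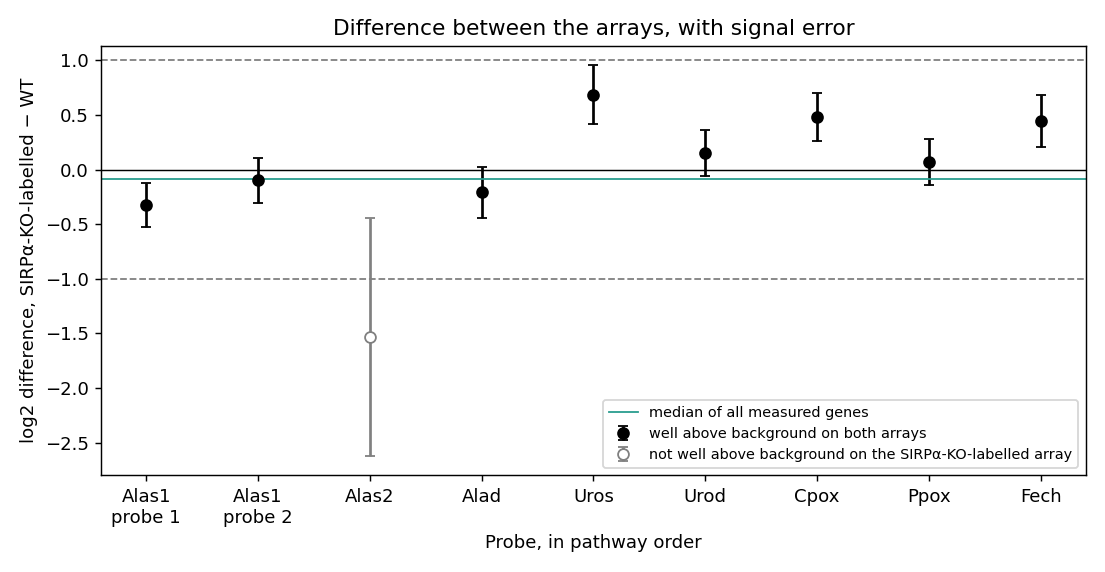
Log2 difference of each probe, SIRPα-KO-labelled minus WT, after scaling to the 75th percentile, with the carried signal error; dashed lines mark 2-fold and the coloured line the median of all measured genes (-0.09). No filled point reaches a dashed line. The open point is the Alas2 value from its processed signals without the limit (-1.53), whose SIRPα-KO-labelled signal was not well above background.

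**Figure D3:**
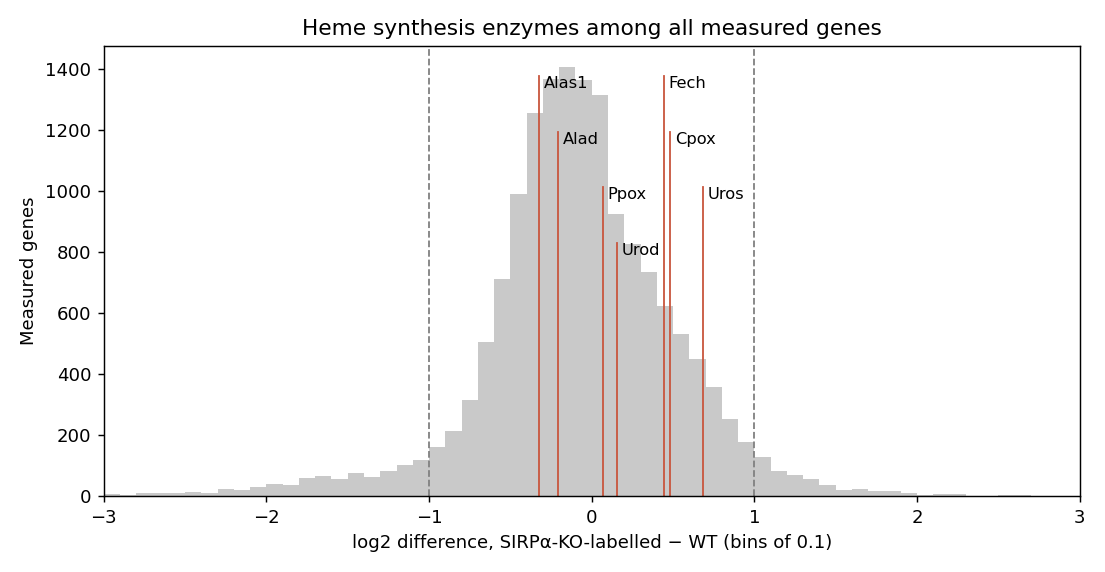
Number of measured genes by log2 difference, SIRPα-KO-labelled minus WT, in bins of 0.1 (grey bars), with the 7 enzymes well above background on both arrays marked by lines whose height has no meaning. The enzymes lie between -0.33 and 0.68, inside the 2-fold limits (dashed).

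Across the scalings, background corrections and probe choices tried, Uros ranged between 0.34 and 0.72, Cpox between 0.31 and 0.49 and Fech between 0.25 and 0.45, always above 0. Alad ranged between -0.38 and -0.03 and Alas1 at its brighter probe between -0.49 and -0.045, always below 0. Urod ranged between -0.02 and 0.17 and Ppox between -0.10 and 0.08, and both turned below 0 without scaling, which lowered the median of all measured genes to -0.26. Counts of genes either way moved with both the scaling and the background correction. Genes 2-fold or more higher made up 36.2% of those 2-fold or more apart here. The share was 46.9% after quantile normalization, 20.5% without scaling, 16.7% without background correction and 15.0% after normexp. In each of these settings, 0 of the 7 enzymes well above background on both arrays reached 2-fold.

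**Figure D4:**
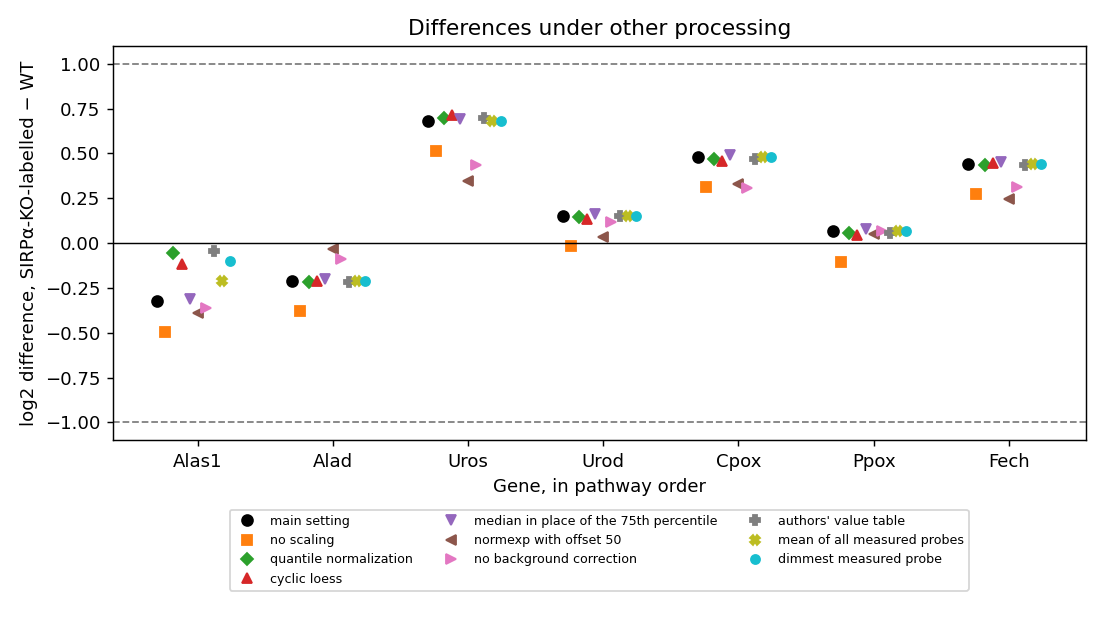
Log2 difference, SIRPα-KO-labelled minus WT, of the 7 enzymes well above background on both arrays under the main setting (black) and 9 other settings (colours and shapes); dashed lines mark 2-fold. The brighter Alas1 probe and Alad stay below 0, Uros, Cpox and Fech stay above 0, and Alas1 has its smallest differences with quantile normalization (-0.054) and in the deposited table (-0.045).

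Genes that feed the pathway were examined next, from lists chosen with earlier results of these data known. Of 19 genes of mitochondrial supply and transport, 14 were measured, 0 were 2-fold or more higher and 1 lower, with a median of -0.23 and 10 below 0. Slc25a38, the glycine carrier, had a signal of 173 on the SIRPα-KO-labelled array and 169 on the WT array (0.21 ± 0.21). Slc25a37, the mitoferrin that brings iron to ferrochelatase in erythroid cells, had 42.4 on the SIRPα-KO-labelled array and 52.0 on the WT array (-0.13 ± 0.22), and its other probe was well above background on the WT array only. Abcb10, an inner membrane transporter that stabilises mitoferrin, had 25.9 on the SIRPα-KO-labelled array and 34.7 on the WT array (-0.26 ± 0.25). Tmem14c, which moves a porphyrin intermediate inward, and Clpx, which activates the synthase, were well above background on neither array. The gene past 2-fold was Abcb8, a mitochondrial transporter, with 829 on the SIRPα-KO-labelled array and 4060 on the WT array (-2.12 ± 0.20). Its other probe was well above background on neither array.

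Ferrochelatase holds an iron-sulfur cluster, and of 15 genes of cluster assembly 12 were measured, 0 2-fold or more higher and 2 lower, with a median of -0.02. Those lower were Fdxr, the ferredoxin reductase, with 1092 on the SIRPα-KO-labelled array and 5370 on the WT array (-2.13 ± 0.20), and Hscb, a co-chaperone, with 1045 on the SIRPα-KO-labelled array and 2431 on the WT array (-1.05 ± 0.20). Each had a single probe. Hscb dropped under 2-fold after quantile normalization (-0.77), after cyclic loess (-0.865) and in the table deposited by the authors (-0.77). Glrx5, a glutaredoxin needed for heme synthesis in zebrafish and human erythroid cells, was well above background on the SIRPα-KO-labelled array only, at 12.1 against 4.45 on the WT array. In the main setting it was at least 1.71-fold higher, a bound of 0.78. Without the limit the difference was 1.61 ± 0.63. Across the settings tried it ranged between 0.26 with normexp and 1.61 with no filter on dim probes, and it was 0.30 without background correction.

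On the side of heme breakdown, transport and sensing, 21 of 22 genes were measured, 1 2-fold or more higher and 0 lower, with a median of 0.21. Hmox1, the inducible heme oxygenase, differed by -0.32 ± 0.20, Blvrb, a biliverdin reductase, by 0.25 ± 0.20, Slc48a1, which exports heme from the phagolysosome, by -0.17 ± 0.20 and Flvcr1, a heme exporter, by 0.21 ± 0.26. The gene past 2-fold was Bach1, a repressor that heme releases from DNA, with 40.3 on the SIRPα-KO-labelled array and 20.4 on the WT array (1.15 ± 0.25). It dropped under 2-fold with normexp (0.37), without background correction (0.49) and without scaling (0.98). Among 10 transcripts listed for an iron-responsive element, Alas2 included, 0 were past 2-fold either way and the median was 0.25. Tfrc, the transferrin receptor, had 20.7 on the SIRPα-KO-labelled array and 13.7 on the WT array (0.76 ± 0.32), and its other probes were well above background on neither array.

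Of 22 genes of heme maturation and hemoproteins, 20 were measured, 2 2-fold or more higher and 2 lower, with a median of 0.07. Cox10, which takes heme toward cytochrome c oxidase, was 2.08-fold higher, with 38.5 on the SIRPα-KO-labelled array and 20.8 on the WT array (1.06 ± 0.24). It dropped to 0.42 with normexp, 0.55 without background correction and 0.89 without scaling, all under 2-fold. Ptgs1, the constitutive cyclooxygenase, a hemoprotein, was 2.46-fold higher (1.30 ± 0.21), and Ptgs2, its inducible counterpart, at least 2.30-fold lower. Neither passed 2-fold with normexp, which gave 0.70 for Ptgs1 and -0.18 for Ptgs2, or without background correction, which gave 0.82 for Ptgs1 and -0.30 for Ptgs2. Cyb5r3, a cytochrome b5 reductase, differed by -2.09 ± 0.23, and its other probe by 0.99. Of 12 listed regulators of Alas1, 10 were measured, 1 was 2-fold or more higher and 1 lower, with a median of -0.10. Ppargc1a, a coactivator that induces Alas1 in liver, differed by -0.13 ± 0.22. Nrf1, an activator of nuclear genes for mitochondrial proteins, had 249 on the SIRPα-KO-labelled array and 180 on the WT array (0.64 ± 0.20), and its other probes were well above background on neither array. Nr1d1, a heme-binding repressor, was well above background on neither array. Those past 2-fold were Rxra at -1.76 ± 0.21 and Nr1i3 at 1.20 ± 0.26, both nuclear receptors. The other Rxra probe gave -0.24, and the other Nr1i3 probe was well above background on neither array. Nr1i3 dropped under 2-fold with normexp (0.45) and without background correction (0.55).

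**Figure D5:**
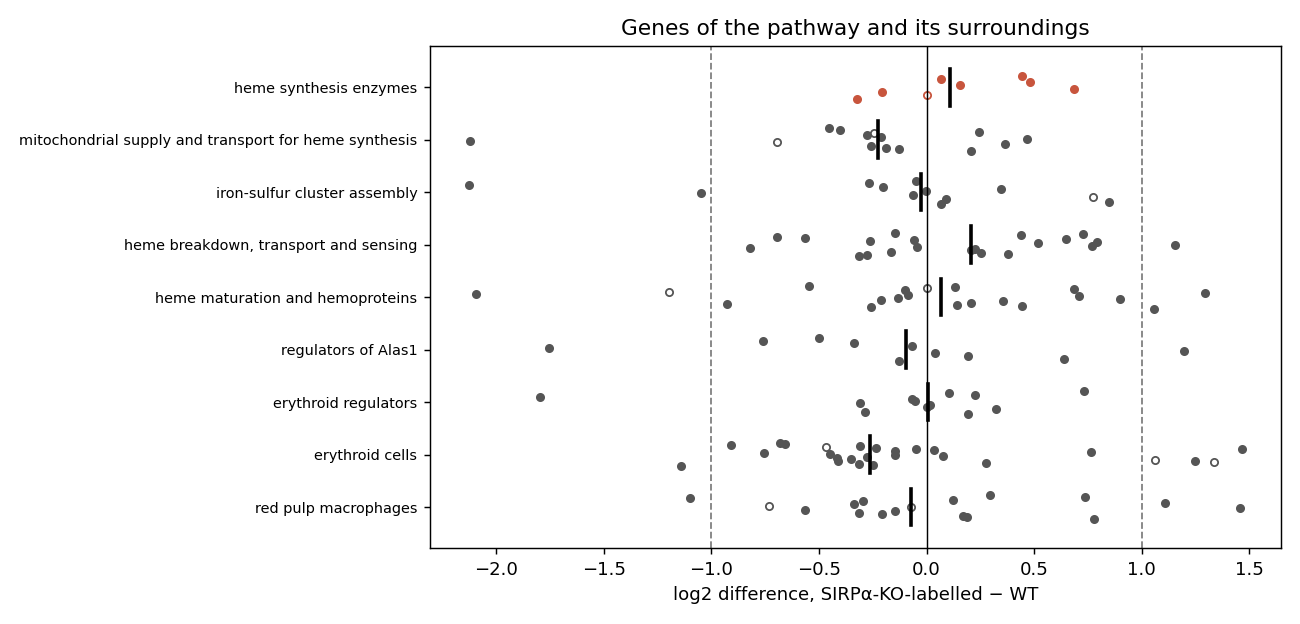
Log2 differences, SIRPα-KO-labelled minus WT, of measured genes in each list, with the 8 heme synthesis enzymes on top in colour; black bars are list medians, dashed lines mark 2-fold, and open points are genes well above background on 1 array only, drawn at their bound. The enzymes lie between -0.33 and 0.68, and Abcb8 and Fdxr are the points below -2 in the lists of supply and of cluster assembly.

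Since Alas2 is an erythroid gene, erythroid transcripts in the sorted cells were set beside it. Of 37 listed erythroid cell genes, 35 had a probe. Of these, 25 were well above background on the SIRPα-KO-labelled array and 24 on the WT array. The arrays differed in brightness, with a 75th percentile of 89.1 on the SIRPα-KO-labelled array and 100.2 on the WT array. Without scaling, the signals of the genes with a probe summed to 34916 on the SIRPα-KO-labelled array and 57962 on the WT array. Hba-a2, Ermap and Hemgn made up 90.6% of that sum on the SIRPα-KO-labelled array and 92.8% on the WT array, and the rest summed to 3296 on the SIRPα-KO-labelled array and 4198 on the WT array. Of 26 measured, 4 were 2-fold or more higher and 1 lower, with a median of -0.26. Hemgn, an erythroid nuclear protein, had a signal of 7606 on the SIRPα-KO-labelled array and 10925 on the WT array (-0.35 ± 0.20). Hba-a2, an alpha globin gene whose message the depletion targets and which was named, as was Ermap, after its values were seen, had 11251 on the SIRPα-KO-labelled array and 23729 on the WT array (-0.91 ± 0.20). Slc4a1, the band 3 anion exchanger, had 591 on the SIRPα-KO-labelled array and 789 on the WT array (-0.25 ± 0.20). With scalings that follow brightness, Hemgn was at -0.13 after quantile normalization, after cyclic loess and in the table deposited by the authors. In the same order, Slc4a1 was at -0.01, -0.11 and -0.01, and Hba-a2 at -0.73, -0.67 and -0.72.

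The erythroid genes past 2-fold on the higher side were Ypel4 (1.47 ± 0.35), the membrane skeleton genes Ank1, at least 2.53-fold higher, and Epb41 (1.25 ± 0.21), and the adhesion molecule Icam4, at least 2.09-fold higher and named after its values were seen. The other Epb41 probes were well above background on neither array. With normexp none of these 4 genes stayed past 2-fold, with Ypel4 at 0.31, Ank1 at 0.41, Epb41 at 0.92 and Icam4 at 0.18. Without background correction Epb41 alone of the 4 did, at 1.05, and without scaling Icam4 was at 0.89. Rhag, Rhd, Kel and Epb42, also of the red cell membrane and named after their values were seen, were well above background on neither array. Of 14 erythroid regulators, 12 were measured, 0 were 2-fold or more higher and 1 lower, with a median of 0.01. Gata1, the master regulator of erythroid genes, had 12.4 on the SIRPα-KO-labelled array and 12.2 on the WT array (0.19 ± 0.37). Klf1, an erythroid Krüppel-like factor, differed by -0.29 ± 0.23 and Epor, the erythropoietin receptor, by -0.07 ± 0.23. The one past 2-fold was Stat5a, a signal transducer of cytokine receptors, at -1.80 ± 0.20. The part that erythroid RNA played in the values of the enzymes was not tested.

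The other cell types a spleen sort could carry were counted the same way, as genes 2-fold or more higher and lower among those measured. They were 0 and 1 of 8 for B cells (Cr2), 0 and 1 of 8 for T cells (Cd8b1), 0 and 1 of 7 for neutrophils (S100a8), 0 and 1 of 7 for monocytes and dendritic cells (Flt3), 1 and 0 of 8 for platelets and megakaryocytes (Gp1ba), and 0 and 2 of 7 for plasma cells (Jchain and Derl3). Among 17 measured red pulp macrophage genes, 2 were 2-fold or more higher, Cd5l and C1qc, and 1 lower, Hpgd. The unscaled signals of that list summed to 21325 on the SIRPα-KO-labelled array and 17417 on the WT array. In the same order they summed to 130872 and 92037 for monocytes and dendritic cells, and to 39467 and 45975 for neutrophils. T cells gave 16773 and 36644, platelets and megakaryocytes 14311 and 14861, B cells 3049 and 3810, and plasma cells 2495 and 3693. Brightness differs by probe, so these sums do not count cells. With normexp S100a8, Gp1ba, Derl3, Cd5l, C1qc and Hpgd were under 2-fold, and after quantile normalization Flt3 and Hpgd were.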

How the data were processed

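Red pulp macrophages of both genotypes were analysed, 1 array each, as intensity values in the deposited scanner tables, which per the file headers come from Agilent Feature Extraction, version 11.0.1.1 (design 26655, mm9 build). The processed intensity is background-subtracted and spatially detrended by that software, per the file headers. A deposited value table of the authors holds log2 values of 39485 rows, with a median of 4.56 in each column. Their ranks followed the scanner signal of the same array, so scale direction is settled, and the sources used here do not give the normalization. The scanner tables carry flags of 0 or 1 per spot, as deposited.

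Control spots and outlier spots (167 on the SIRPα-KO-labelled array and 190 on the WT array, of 43020) were left out, and no spot was saturated. Log2 signals were reduced by the log2 of each array's 75th percentile (89.1 on the SIRPα-KO-labelled array and 100.2 on the WT array), spots of a probe were averaged, and the brightest probe stood for a gene. A probe counted as well above background where no more of its spots failed the flag than passed it; the dim side of a gene measured on 1 array was raised to the lowest scaled value well above background there, and the difference was set to 0 where this turned it round. Coordinates come from GRCm38.p6 and no probe coordinate is given. The members, lists and naming rule (8 enzymes, fixed macrophage, erythroid and pathway genes, and up to 3 genes past 2-fold each way per list) were chosen with earlier results of these data known. Some listed genes are counted in their lists and not reported here by name. Steps used Python 3.11.15 and, for normexp, quantile and cyclic loess normalization, limma 3.58.1 in R 4.3.3, and were tested on simulated data. The scanner tables have no mean-signal column, so normexp and the uncorrected alternative used median signals, a choice made after seeing the files. The number of arrays limits precision.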

Additional observations from a re-analysis of the deposited data

How the results depend on the processing

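No enzyme 2-fold or more apart appeared under the scaling, background and probe choices tried, in which Alas2 was held to its limit. With no filter on dim probes 1 of 8 was lower, Alas2 at -1.53, and the Alas1 difference minus that of Alas2 became 1.20. At 1.5-fold 1 of 8 was higher, which is Uros. The Alas1 difference of -0.33 moved by more than its error to -0.054 with quantile normalization, -0.12 with cyclic loess, -0.045 in the deposited table and -0.10 at its dimmest probe; that of Uros moved to 0.34 with normexp. Without scaling 304 genes were higher, against 492; this was 102 with normexp, 120 without background correction, 877 unfiltered, 1806 for a limit of 1.5-fold and 103 for a limit of 3-fold. For genes lower, 867, the values were 1642 unfiltered, 2135 for 1.5-fold and 374 for 3-fold. Limits and filter act by construction; the cause of the other shifts was not tested. Of 26 named genes outside the pathway enzymes that were past 2-fold, 16 were under it with normexp, 15 without background correction, 4 without scaling, 3 each with quantile normalization, cyclic loess and the deposited table, and 4 each with the mean and the dimmest probe. At the dimmest probe, which is another probe, Cyb5r3 turned to 0.99 and Cr2 to 0.31. Signal over background limits Alas2, whose difference could not be measured. No paired analysis was possible because each genotype had 1 array.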
